A study of Homo sapiens with 14 samples.

Results

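Binding of heat shock factor 1 (HSF1) in mitotic cells was compared with and without heat, using every peak of the list from heat-treated mitotic cells and every peak of the list from non-treated mitotic cells. The heat-treated list held 4982 peaks and the non-treated list 4534, together 9516 of the 117699 peaks in the 12 lists of the series. No minimum of fold, p or false discovery rate was set, and peaks that overlapped a peak of non-specific antibody (IgG) from mitotic cells of the same treatment were set apart. All libraries were made by chromatin immunoprecipitation and sequencing (ChIP-seq) from K562, a human erythroleukemia cell line. The heat-treated mitotic cells had been arrested in mitosis and held at 42 °C for 30 min, and the non-treated mitotic cells had been arrested in mitosis and kept at 37 °C. Cycling cells of either treatment, which were not arrested, gave HSF1, HSF2 and IgG lists to set beside these. How the arrest was made and how many of the cells were in mitosis is not given in the sources used here, and peak lists hold no marker that could check it.

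HSF1 is the main activator of the heat shock response in vertebrates. In unstressed cells it is held mostly as an inactive monomer in complex with chaperones. On heat it forms trimers, binds heat shock elements, which are inverted repeats of the unit nGAAn, and drives transcription of genes for chaperones. Chromosomes are condensed and transcription is largely silent in mitosis, and many transcription factors leave the chromosomes at that stage. HSF2 belongs to the same family and also binds this element.

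Each group has 1 library, made from 10 pooled immunoprecipitations, so the spread between cultures cannot be given and no difference between treatments was tested. All intervals are 95% intervals for counting error alone. After the cap on duplicates, the HSF1 library of heat-treated mitotic cells kept 7385467 tags and that of non-treated mitotic cells 6164898. The IgG libraries were far less alike, with 17981369 kept tags and 41184 peaks in heat-treated mitotic cells and 2066373 kept tags and 2373 peaks in non-treated mitotic cells. 1 mitotic input library, labelled as heat-treated, served as control for both HSF1 lists. A tag count pools many cells, so the share of cells with a bound site and the occupancy per cell cannot be told apart.

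The promoters of 5 genes near peaks with a deposited fold over input of at least 5 in the heat-treated list are shown. They hold a strict spelling, given below, of the element that HSF1 binds. The promoter of HSPA1A is shown because its peak was among the highest but its window does not hold these letters. Less exact forms of the element were not searched, so a window without these letters may still hold the element. Capitals mark 3 alternating units, spelled GAANNTTCNNGAA or TTCNNGAANNTTC and searched on both strands, and matches may overlap. Sequences are RefSeq promoter windows of GRCh38.p14, from 250 bases before to 50 bases after the gene start, written in the direction of transcription.
HSPD1, chr2:197499791-197500090, minus strand: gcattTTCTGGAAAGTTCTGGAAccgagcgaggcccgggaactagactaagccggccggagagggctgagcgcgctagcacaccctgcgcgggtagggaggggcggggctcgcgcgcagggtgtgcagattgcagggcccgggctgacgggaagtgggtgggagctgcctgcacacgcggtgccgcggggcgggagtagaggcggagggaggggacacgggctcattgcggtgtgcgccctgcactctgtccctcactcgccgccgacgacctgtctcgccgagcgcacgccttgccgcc
HSPA8, chr11:123062087-123062386, minus strand: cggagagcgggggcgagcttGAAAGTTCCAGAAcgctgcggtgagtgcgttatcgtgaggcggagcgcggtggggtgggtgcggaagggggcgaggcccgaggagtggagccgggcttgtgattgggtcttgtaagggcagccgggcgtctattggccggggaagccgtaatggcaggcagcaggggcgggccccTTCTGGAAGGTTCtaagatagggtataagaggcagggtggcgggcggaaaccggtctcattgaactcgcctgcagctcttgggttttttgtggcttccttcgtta
HSP90AA1, chr14:102086995-102087294, minus strand: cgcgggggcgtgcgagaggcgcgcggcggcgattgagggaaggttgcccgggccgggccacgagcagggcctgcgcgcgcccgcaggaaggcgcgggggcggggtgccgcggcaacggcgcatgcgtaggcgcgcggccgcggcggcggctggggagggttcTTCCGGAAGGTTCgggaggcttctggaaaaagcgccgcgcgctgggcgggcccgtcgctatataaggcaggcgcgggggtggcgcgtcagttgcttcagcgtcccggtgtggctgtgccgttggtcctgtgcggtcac
DNAJB6, chr7:157336754-157337053, plus strand: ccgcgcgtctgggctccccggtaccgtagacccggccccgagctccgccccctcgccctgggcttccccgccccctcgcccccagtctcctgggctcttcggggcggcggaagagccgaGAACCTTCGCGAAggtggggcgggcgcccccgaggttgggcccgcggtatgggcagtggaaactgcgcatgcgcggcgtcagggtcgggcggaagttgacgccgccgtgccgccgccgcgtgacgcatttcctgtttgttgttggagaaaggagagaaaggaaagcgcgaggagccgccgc
SERPINH1, chr11:75562003-75562302, plus strand: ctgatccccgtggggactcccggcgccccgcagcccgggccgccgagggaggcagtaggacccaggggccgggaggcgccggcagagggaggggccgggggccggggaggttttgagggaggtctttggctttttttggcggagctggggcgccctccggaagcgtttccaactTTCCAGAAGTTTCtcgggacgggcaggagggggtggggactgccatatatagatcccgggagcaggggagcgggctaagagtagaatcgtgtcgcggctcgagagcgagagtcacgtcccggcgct
HSPA1A, chr6:31815293-31815592, plus strand: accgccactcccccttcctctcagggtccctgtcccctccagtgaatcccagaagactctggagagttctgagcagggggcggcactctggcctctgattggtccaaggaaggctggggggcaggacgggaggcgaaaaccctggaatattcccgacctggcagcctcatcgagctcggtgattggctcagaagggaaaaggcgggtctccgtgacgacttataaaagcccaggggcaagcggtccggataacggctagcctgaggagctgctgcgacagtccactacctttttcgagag

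In HSPD1 there were 2 overlapping matches, which began 245 and 240 bases before the start. HSPA8 had 2 separate matches, beginning 230 and 55 bases before the start. HSP90AA1 had 1 match that began 88 bases before the start, SERPINH1 1 at 76 bases and DNAJB6 1 at 131 bases. Of all 35116 RefSeq promoter windows of this length, 172 (0.490%) held the motif. Of 20 genes looked up near the named peaks, 19 were in the table, and 6 of the 29 windows of these genes held the motif, the sixth being that of HSP90AB1. The genes were chosen with the peaks known, so these counts are descriptions. A match is not a mapped site: the peaks are in hg19, the windows in GRCh38, and their places relative to each other were not examined.

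Among the 37 peaks of the heat-treated list with a deposited fold over input of at least 5, 31 had no peak in the non-treated mitotic HSF1 list, as did 3381 (67.9%) of all 4982. A total of 20 of the 37 are named here, by position, from general knowledge of gene locations in hg19, and the names were given after the values were seen. Which genes are described below thus follows from which peaks were named, and says nothing of the share of chaperone genes among all 37. As a rough check of some names, the distance between summits was set beside the distance between gene starts in RefSeq for 7 pairs of named neighbours on 1 chromosome. The distances differed by 0.00284 to 0.549%, across 2 genome builds. In bp, summits minus gene starts ran from -410648 to 163417, and differences that wide cannot place a gene at the scale of a promoter. HSPD1, MRPS6, HSP90AA1, BAG3, DNAJB1, NUDC and ST13 were in no pair, so their names were not checked. HSPA1A and HSPA1B lay 12226 bp apart by summits and 12195 bp by gene starts, and the widest gap was between ZFAND2A and HSPB1, with 74731829 and 75142477 bp. Of the 20 named places, 4 had a peak in both lists and 16 in the heat-treated list only, to be read against the 67.9% over the whole list. A peak in the non-treated list had at least 8 tags (1.30 tags per 1000000 kept tags, CPM), so a place absent from that list has no value there, not a value of 0.

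HSPA1B and HSPA1A encode the inducible HSP70 chaperones and had the highest folds of the heat-treated list. The peak at HSPA1B (chr6:31794663-31796838) held 164 tags or 22.2 CPM (18.9 to 25.9) in heat-treated mitotic cells, against 34 tags or 5.52 CPM in non-treated mitotic cells, a ratio of 4.03 (2.77 to 6.01). The deposited fold there was 20.53 after heat and 5.34 without. At HSPA1A (chr6:31782399-31784531), heat-treated mitotic cells had 126 tags or 17.1 CPM (14.2 to 20.3), against 12 tags or 1.95 CPM in non-treated mitotic cells, a ratio of 8.76 (4.84 to 17.4). The deposited fold at HSPA1A was 16.33 after heat and 2.53 without. The copies are near-identical in sequence, so the split of tags between them is uncertain. Both places also had an IgG peak in heat-treated mitotic cells, of 4.84 CPM at HSPA1B and 4.62 CPM at HSPA1A, and in heat-treated cycling cells, of 5.42 and 4.81 CPM. The IgG list of non-treated mitotic cells had none there.

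HSPD1 and HSPE1 encode the mitochondrial chaperonin HSP60 and its partner HSP10 and share a promoter region. Their peak (chr2:198364221-198365408) held 70 tags or 9.48 CPM (7.39 to 11.97) in heat-treated mitotic cells, against 12 tags or 1.95 CPM in non-treated mitotic cells, a ratio of 4.87 (2.62 to 9.87). No IgG list of mitotic cells had a peak there. HSPA8, which encodes the constitutive HSC70, had 26 tags or 3.52 CPM in heat-treated and 15 tags or 2.43 CPM in non-treated mitotic cells. Its ratio of 1.45 had an interval (0.74 to 2.94) that holds 1.

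At 3 of these 4 places the called peak was wider after heat, and there the ratio was lower per kilobase. The HSPA1B peak spanned 2176 bp after heat and 798 bp without, and per kilobase the ratio was 1.48. The HSPA1A peak spanned 2133 bp after heat and 706 bp without, with a ratio of 2.90 per kilobase. At HSPD1 the widths were 1188 and 611 bp, with a ratio of 2.50. At HSPA8 they were 800 and 816 bp, with a ratio of 1.48. Values after heat were above those without at all 4 places on either scale, and only at HSPA8 did the interval of the tag ratio hold 1.

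**Figure D1:**
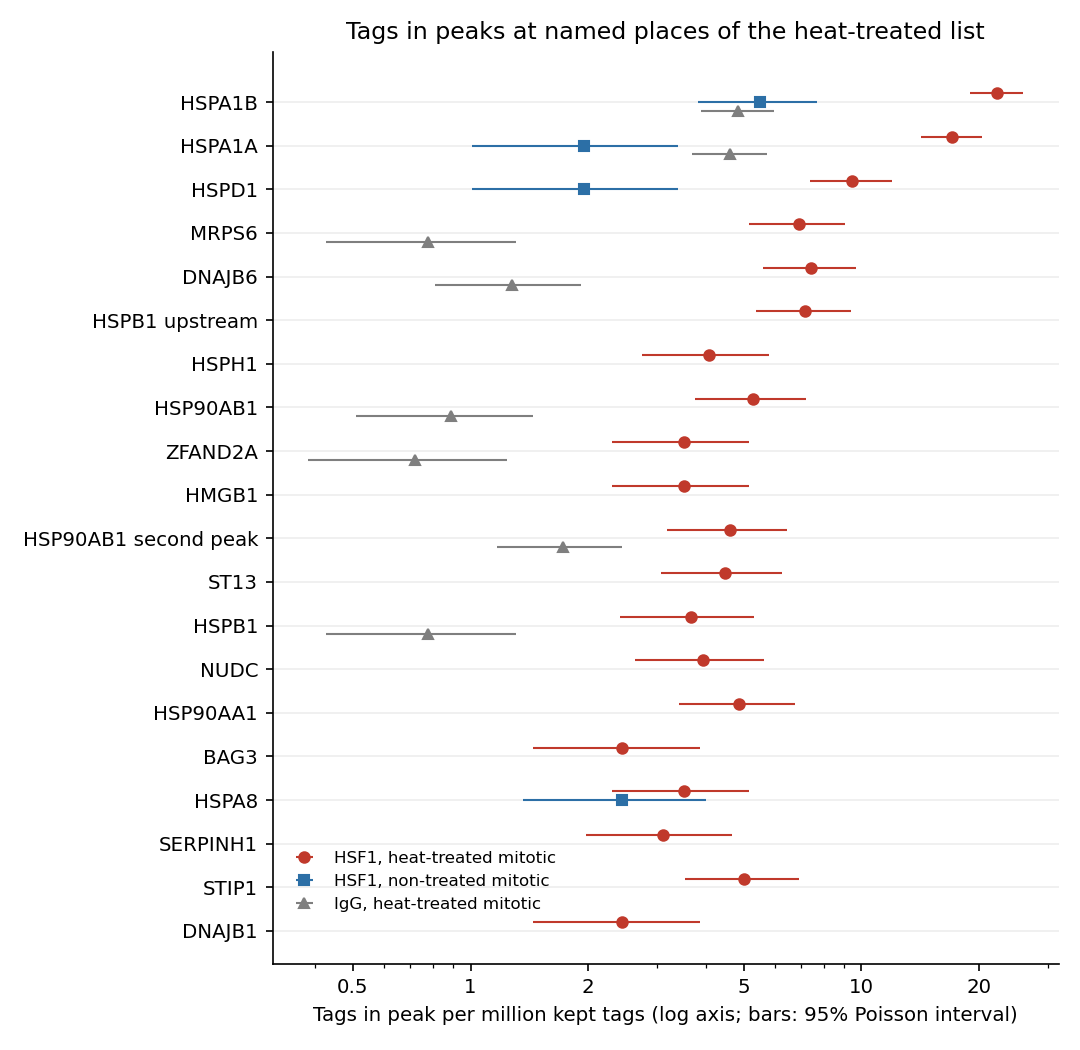
Tags in peaks per 1000000 kept tags (log axis) at the 20 named places, ordered by deposited fold in the heat-treated list, for HSF1 in heat-treated mitotic cells, HSF1 in non-treated mitotic cells and IgG in heat-treated mitotic cells; bars are 95% Poisson intervals and a missing point means that the list has no peak there. HSF1 after heat lies between 2.44 and 22.2 CPM, with a point for non-treated HSF1 at 4 places and for IgG at 8.

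The other 16 named places had a mitotic HSF1 peak only in the heat-treated list. They included the HSP90 genes: HSP90AB1 had 39 tags or 5.28 CPM (3.76 to 7.22) in 1 peak and 34 tags or 4.60 CPM in another beside it, and HSP90AA1 had 36 tags or 4.87 CPM (3.41 to 6.75). HSP40 co-chaperones were present, with 7.45 CPM (5.61 to 9.69) at DNAJB6 and 2.44 CPM (1.44 to 3.85) at DNAJB1. The small heat shock protein HSPB1 had 3.66 CPM at the gene and 7.18 CPM (5.38 to 9.39) in a peak upstream of it. HSPH1, which encodes the HSP110 nucleotide exchange factor, had 4.06 CPM, and BAG3, a co-chaperone of HSP70 in autophagy, had 2.44 CPM. The adaptors STIP1 and ST13, which link HSP70 with HSP90, had 5.01 and 4.47 CPM. SERPINH1, the collagen chaperone HSP47, had 3.11 CPM. ZFAND2A (AIRAP, a zinc finger protein of the proteasome response) had 3.52 CPM, NUDC, a co-chaperone needed for cell division, 3.93 CPM and HMGB1, a chromatin protein, 3.52 CPM. The peak near MRPS6, a mitochondrial ribosome gene that overlaps SLC5A3, had 51 tags or 6.91 CPM (5.14 to 9.08) and a fold of 11.62.

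All 20 named places also had an HSF1 peak in heat-treated cycling cells and an HSF2 peak in heat-treated mitotic cells, against 1201 (24.1%) and 1444 (29.0%) of all 4982 heat-treated mitotic HSF1 peaks. Among all 37 peaks at a fold of at least 5, 36 and 30 had one, and the 7 without HSF2 were all among the 17 not named. Of the 20 named places, 4 had an HSF1 peak in non-treated cycling cells, against 22.6% of all 4982 peaks. An HSF2 peak in non-treated mitotic cells was present at 11 of the 20, against 41.6% of all 4982. A total of 8 had an IgG peak in heat-treated mitotic cells, against 49.7% of all 4982, and 15 of the 37 had one. The median of these 8 IgG peaks was 1.08 CPM (range 0.723 to 4.84). For HSF1 the median was 4.54 CPM, but over all 20 places and in a library with another duplicate cap. None of the 20 had an IgG peak in non-treated mitotic cells, whose IgG library is the shallowest of the series, against 13.7% of all 4982. By CPM, HSF1 in mitotic cells was lower than in cycling cells, both after heat, at 14 of the 20 places and higher at 6. The median ratio was 0.733. It ran from 0.423 (0.309 to 0.569) upstream of HSPB1, with 7.18 CPM in mitotic and 16.97 CPM in cycling cells, to 1.93 (1.30 to 2.85) at MRPS6, with 6.91 CPM in mitotic and 3.59 CPM in cycling cells. The interval lay below 1 at 9 places and above 1 at 2, MRPS6 and HSP90AA1. The 2 cell states differ in duplicate cap, input library and the alignment names in the file headers, and their parts in these ratios cannot be told apart.

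The 17 peaks of the 37 that are not named here are left without a gene name, and 2 of them are given by position. The highest folds among them were 9.16 at chr16:89227454-89228358, with 44 tags or 5.96 CPM, and 8.80 at chr2:70369384-70370220, with 34 tags or 4.60 CPM. Neither overlapped a non-treated mitotic HSF1 peak, and both had an HSF1 peak in heat-treated cycling cells, of 12.1 and 4.72 CPM. The chr2 place also had an IgG peak of 1.89 CPM in heat-treated mitotic cells. 1 of the 37 had no HSF1 peak in heat-treated cycling cells.

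The list of non-treated mitotic cells was also read from its own top by deposited fold, but genes were named only from the heat-treated list. Its highest folds were 6.71 at chr2:33141156-33141745 and 6.47 at chr17:31149067-31150057, and both places were also in IgG lists. The chr2 place had 9.34 CPM of HSF1 in heat-treated and 16.1 CPM in non-treated mitotic cells. IgG there had 2.61 CPM in heat-treated and 64.4 CPM in non-treated mitotic cells. The chr17 place had 18.3 CPM of HSF1 in heat-treated and 17.5 CPM in non-treated mitotic cells, against 25.4 CPM of IgG in heat-treated and 16.9 CPM of IgG in non-treated mitotic cells. HSPA1B came next with a fold of 5.34. HSPD1 was also in the top 10 of the non-treated list, with 3.52. The remaining places of that top 10 overlapped no peak given a gene name here. Since all names were drawn from the heat-treated list, this says nothing of which genes lie near them.

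Over the full lists, most peaks held few tags and had a low deposited fold in either treatment. The median peak held 11 tags or 1.49 CPM in heat-treated and 9 tags or 1.46 CPM in non-treated mitotic cells. The peaks together held 1.88% of kept tags after heat and 1.87% without, over 4.75 and 4.12 Mb. The authors' fold was below 1 for 1488 peaks (29.9%, 28.6 to 31.2%) of the heat-treated list and for 2197 (48.5%, 47.0 to 49.9%) of the non-treated list. These folds are not scaled to depth, and the input kept 38337720 tags, more than either HSF1 library. A fold below 1 thus does not by itself mean fewer tags than input at equal depth, and these 2 shares were not rescaled. The lists parted at the top. At a fold of at least 3 there were 171 peaks after heat and 13 without, at least 5 gave 37 and 3, and at least 7 gave 13 and 0.

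**Figure D2:**
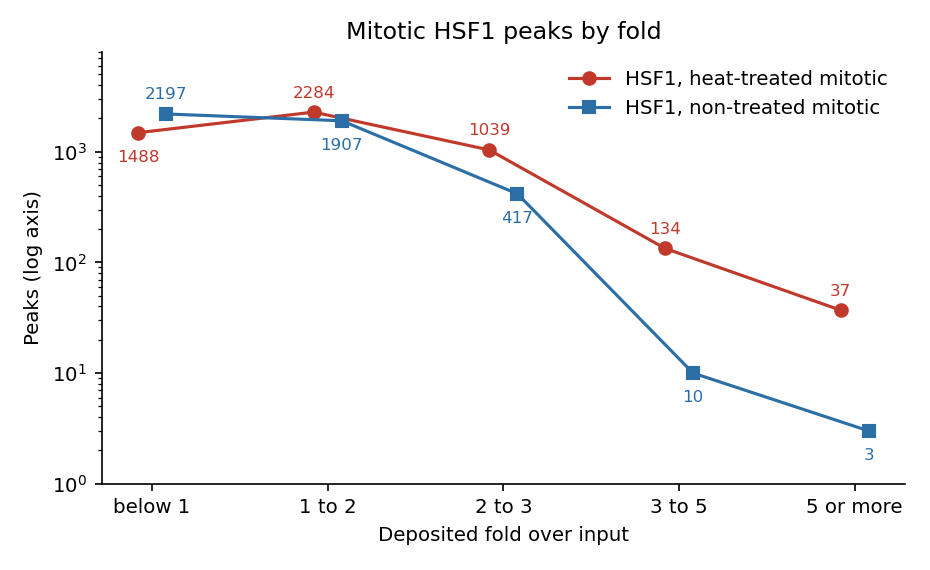
Number of peaks (log axis) by deposited fold over input in the HSF1 lists of heat-treated and non-treated mitotic cells. The lists part most at the top, with 134 and 10 peaks between 3 and 5 and 37 and 3 at 5 or more.

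The deposited fold moves with depth. In 1073 regions with 1 peak in each list and a fold under 3 after heat, the median ratio of the fold after heat to that without was 1.19, and the ratio of kept tags was 1.20. With the fold of the non-treated list multiplied by the ratio of kept tags, a setting chosen after the values were seen, 171 heat-treated and 46 non-treated peaks reached 3. At 5 there were 37 heat-treated and 4 non-treated peaks. At 2 there were 1210 and 985. The counts after heat were thus higher at each of these folds on this scale too, and were nearer to each other at 2. Of the 171 heat-treated peaks at 3, 142 (83.0%) overlapped an HSF1 peak of heat-treated cycling cells, against 24.1% of the whole list. Of the 46 non-treated peaks, 11 (23.9%) overlapped an HSF1 peak of non-treated cycling cells, close to the 24.0% of the whole list. At 2, 372 (30.7%) of 1210 heat-treated and 71 (7.21%) of 985 non-treated peaks had such an overlap. At 5, 36 of 37 heat-treated and 3 of 4 non-treated peaks had one.

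Overlap between the lists was partial. Of the heat-treated peaks, 1601 (32.1%, 30.9 to 33.4%) overlapped a non-treated peak by at least 1 bp, and of the non-treated peaks 1704 (37.6%, 36.2 to 39.0%) overlapped a heat-treated peak. Among folds under 3, where nearly all peaks lie, the overlap was lower at each higher range of fold. Below a fold of 1, 54.1% of heat-treated and 53.8% of non-treated peaks had a partner in the other list. Between 1 and 2 the shares were 30.8% and 26.2%, and between 2 and 3 they were 7.12% and 3.84%. At 3 to 5, 13 of 134 heat-treated and 5 of 10 non-treated peaks had a partner. At 5 or more, 6 of 37 heat-treated and 3 of 3 non-treated peaks had a partner.

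IgG peaks of the same treatment covered 2478 heat-treated HSF1 peaks (49.7%, 48.4 to 51.1%) and 783 non-treated HSF1 peaks (17.3%, 16.2 to 18.4%). That gap goes with the size of the IgG lists, 41184 and 2373 peaks. With both mitotic IgG lists set against each HSF1 list, the shares were 54.6% of heat-treated and 53.4% of non-treated peaks. Without an IgG peak of the same treatment, 2504 heat-treated peaks remained, of which 413 (16.5%, 15.1 to 18.0%) overlapped a non-treated HSF1 peak. On the non-treated side 3751 remained, of which 1103 (29.4%, 28.0 to 30.9%) overlapped a heat-treated HSF1 peak. Free of both IgG lists, the shares were 10.2% of 2263 heat-treated and 11.3% of 2113 non-treated peaks, and their intervals (9.03 to 11.5% and 9.99 to 12.7%) overlapped.

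Peaks that were found in only 1 mitotic HSF1 list, free of mitotic IgG of the same treatment and highest in tags had folds under 1 throughout. The 10 such peaks of the heat-treated list held 76 to 302 tags, with folds of 0.42 to 0.92. The largest was chr22:23608313-23618532, a stretch of 10220 bp with 302 tags, 40.9 CPM and a fold of 0.85, where the IgG list of non-treated mitotic cells had 7 peaks of 26.6 CPM in sum. The 10 of the non-treated list held 39 to 590 tags, with folds of 0.38 to 0.81. The largest was chr17:25262876-25268144 with 590 tags, 95.7 CPM and a fold of 0.49. In non-treated cycling cells this place had an IgG peak of 95.7 CPM and an HSF1 peak of 82.7 CPM. HSF1 of heat-treated cycling cells had 72.7 CPM there. Number of tags and deposited fold thus ranked these peaks in different ways.

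Cycling cells gave a readout that the choice of peaks did not use. Of the heat-treated mitotic HSF1 peaks, 1201 (24.1%, 22.9 to 25.3%) overlapped an HSF1 peak of heat-treated cycling cells. The share was 21.9% below a fold of 1, 22.02% between 1 and 2, and 22.1% between 2 and 3. It was 79.1% (106 of 134, 71.5 to 85.1%) between 3 and 5 and 97.3% (36 of 37, 86.2 to 99.5%) at 5 or more. Overlap with IgG of heat-treated cycling cells was 27.4% below a fold of 1, 21.7% between 1 and 2, and 5.97% between 2 and 3. It was 8.96% (12 of 134) between 3 and 5 and 10.8% (4 of 37) at 5 or more. In the non-treated list 1086 peaks (24.0%, 22.7 to 25.2%) overlapped an HSF1 peak of non-treated cycling cells, close to the share after heat. Its distribution differed: 31.3% below a fold of 1, 19.5% between 1 and 2 and 4.56% (19 of 417) between 2 and 3. At 3 to 5 it was 4 of 10 and at 5 or more 3 of 3.

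**Figure D3:**
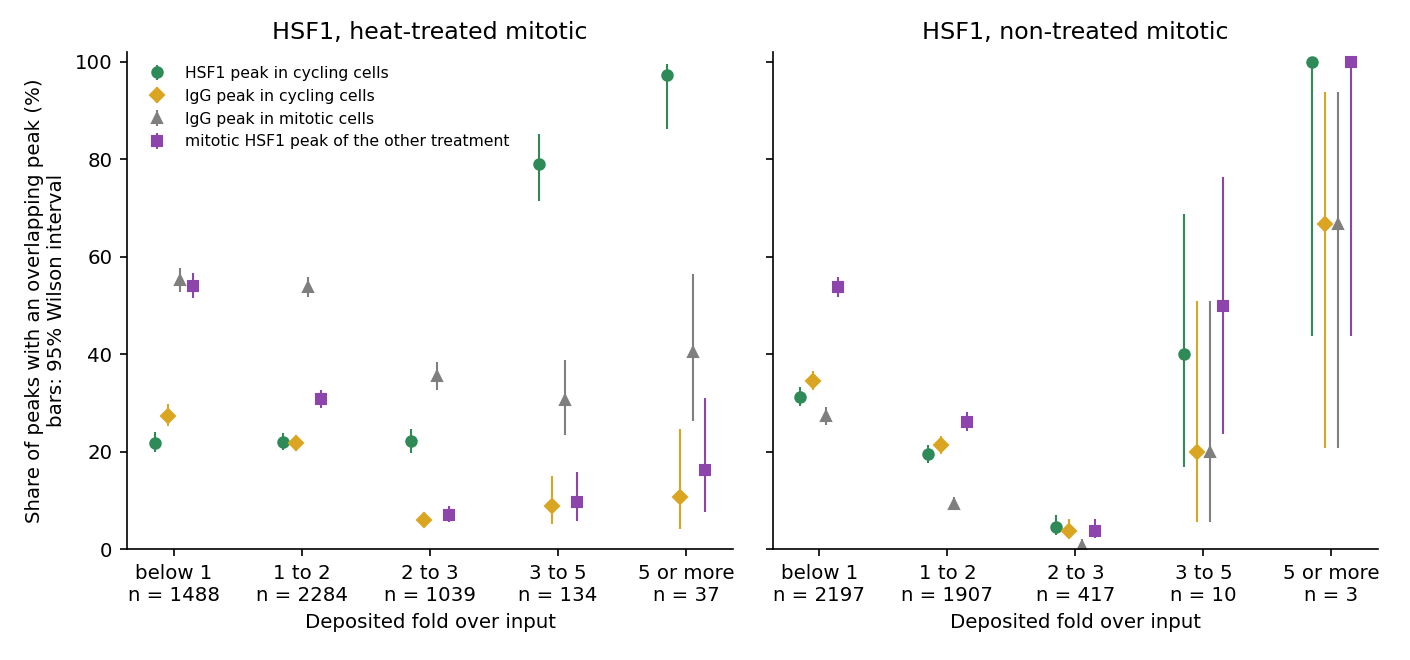
Share of mitotic HSF1 peaks in each range of deposited fold that overlap a peak of 4 other lists, for heat-treated cells (left) and non-treated cells (right); cycling and IgG lists are of the same treatment, bars are 95% Wilson intervals. After heat the share with a cycling HSF1 peak is near 22% below a fold of 3 and 97.3% at 5 or more; without heat only 13 peaks lie at 3 or more.

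Summits of mitotic and cycling HSF1 lay closer together at higher folds. Where a heat-treated mitotic HSF1 peak overlapped one of heat-treated cycling cells, the median distance between summits was 497.5 bp below a fold of 1, 282 bp between 1 and 2, 59.5 bp between 2 and 3, 42 bp between 3 and 5, and 21 bp at 5 or more. Within 100 bp were 23.9% of pairs below a fold of 1 and 97.2% (35 of 36) at 5 or more. To HSF2 of heat-treated mitotic cells the median distance at 5 or more was 44 bp, with 25 of 30 pairs within 100 bp. Summits of IgG of heat-treated mitotic cells also lay closer at higher folds up to 5, with medians of 720, 369, 229 and 127 bp over the same first 4 ranges. Within 100 bp were 20.2% of these IgG pairs below a fold of 1 and 41.5% (17 of 41) between 3 and 5. At 5 or more the median distance to IgG was 174 bp, with 1 of 15 pairs within 100 bp.

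Peaks found in heat-treated mitotic cells, free of both mitotic IgG lists and absent from the non-treated HSF1 list, numbered 2032. Of these, 344 (16.9%, 15.4 to 18.6%) overlapped HSF1 and 83 (4.08%, 3.31 to 5.04%) overlapped IgG of heat-treated cycling cells. The same kind of peak in non-treated cells numbered 1875, of which 111 (5.92%) overlapped HSF1 and 147 (7.84%) overlapped IgG of non-treated cycling cells. The cycling lists differ in size, with 6447 HSF1 and 4377 IgG peaks in heat-treated and 4718 HSF1 and 15758 IgG peaks in non-treated cells, and the effect of these sizes on the shares was not tested. Against the IgG list of heat-treated cycling cells, the 1875 peaks gave 111 (5.92%). At a fold of at least 3, the heat-treated set had 111 peaks. Of these, 94 (84.7%, 76.8 to 90.2%) overlapped HSF1 and 2 overlapped IgG of heat-treated cycling cells. HSF2 of heat-treated mitotic cells overlapped 49 (44.1%, 35.3 to 53.4%) and HSF2 of heat-treated cycling cells 87 (78.4%). HSF1 of non-treated cycling cells overlapped 4. The set of non-treated cells had 3 such peaks, and 0 of them overlapped HSF1 of non-treated cycling cells. With the non-treated fold scaled to the depth of the heat-treated library as above, and peaks shared by the HSF1 lists included, 115 heat-treated and 29 non-treated peaks free of both IgG lists reached 3. Of these, 98 heat-treated and 4 non-treated peaks overlapped cycling HSF1 of the same treatment. At any fold, the shares among peaks free of both IgG lists were 17.4% of 2263 and 9.04% of 2113.

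Where both lists had a peak, their CPM were close. Overlapping peaks were joined into 1389 shared regions, 1090 of them with 1 peak from each list. The median log2 ratio, heat-treated over non-treated, was 0.06 (0.03 to 0.08), and for 82.7% of regions the interval of the ratio held 1. A total of 125 regions (9.00%) were at least 2-fold higher and 54 (3.89%) at least 2-fold lower after heat. In the 187 regions with no IgG peak of either treatment, 15 (8.02%) were higher and 10 (5.35%) lower by this rule. The 2 mitotic IgG lists, treated the same way, shared 491 regions, of which 139 (28.3%) were at least 2-fold higher and 62 (12.6%) at least 2-fold lower after heat. The counts for HSF1 are thus below those between the IgG libraries, which differ far more in depth. Per kilobase of peak, 3 regions were higher and 13 lower, with a median log2 ratio of -0.03.

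**Figure D4:**
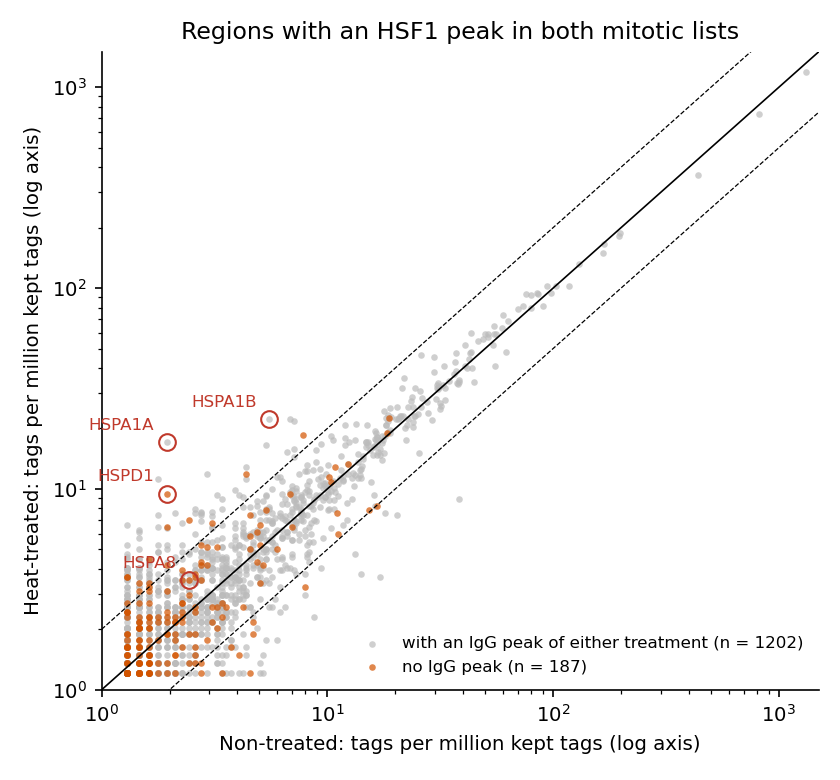
Tags per 1000000 kept tags (log axes) of the 1389 shared regions in heat-treated (vertical) and non-treated (horizontal) mitotic cells; the solid line is equality, the dashed lines mark 2-fold, and colour shows whether an IgG peak of either treatment overlaps. Most regions lie along the line, and HSPA1B, HSPA1A and HSPD1 lie above the upper dashed line.

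The 19 shared regions with a fold of at least 3 after heat had a median log2 ratio of 0.60, against 0.06 in the other 1370. Since they were picked on the heat-treated side, this is a description. Of the 19, 7 were at least 2-fold higher and 0 at least 2-fold lower after heat. Among the regions without IgG, HSPD1 had the highest ratio. The next was chr22:21118204-21120649, with 48 tags or 6.50 CPM in heat-treated and 12 tags or 1.95 CPM in non-treated mitotic cells, a ratio of 3.34 (1.75 to 6.91), but its fold over input was 0.79 after heat and 0.70 without. The lowest ratio was 0.27 (0.11 to 0.58) at chr22:19167982-19169244, with 9 tags or 1.22 CPM in heat-treated and 28 tags or 4.54 CPM in non-treated mitotic cells.

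The 3 regions with the most tags were in both HSF1 lists and both mitotic IgG lists, and had deposited HSF1 folds below 1 in both treatments. At chr1:564095-570473, HSF1 had 8761 tags or 1186 CPM in heat-treated and 8124 tags or 1318 CPM in non-treated mitotic cells, with folds of 0.48 and 0.47. IgG had 1161 CPM in heat-treated and 2263 CPM in non-treated mitotic cells there. The IgG folds there were 1.01 in heat-treated and 0.35 in non-treated mitotic cells, and the fold moves with depth, as given above. At chr5:134258874-134264587, HSF1 had 5410 tags or 733 CPM in heat-treated and 5027 tags or 815 CPM in non-treated mitotic cells, against 735 CPM of IgG in heat-treated and 1423 CPM of IgG in non-treated mitotic cells. At both places the HSF1 tag count was higher and the HSF1 CPM lower in heat-treated than in non-treated cells, and IgG CPM was lower too.

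Chromosome 22 held 1142 peaks (22.9%) of the heat-treated and 1137 (25.1%) of the non-treated list, against 2.33% of the IgG list of heat-treated mitotic cells and 17.8% of that of non-treated mitotic cells. The 2.33% is 958 peaks of a list of 41184. On this chromosome 71.8% of heat-treated HSF1 peaks overlapped IgG of the same treatment, against 49.7% of the whole list. For non-treated HSF1 peaks these shares were 17.4% and 17.3%. The middle 80% of these peaks lay between positions 19032323 and 22984667 in the heat-treated list and between 18984119 and 23120008 in the non-treated list. The fold was below 1 for 58.6% of them after heat and for 78.1% without, and 3 heat-treated and 0 non-treated peaks reached 3. In cycling cells, chromosome 22 held 5.13% of HSF1 peaks after heat and 9.94% without. Of the shared regions 542 were on this chromosome, including 69 of the 125 that were at least 2-fold higher after heat. Without chromosome 22, 24.8% of heat-treated and 29.1% of non-treated peaks overlapped the other list, and 56 regions were at least 2-fold higher and 29 at least 2-fold lower.

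**Figure D5:**
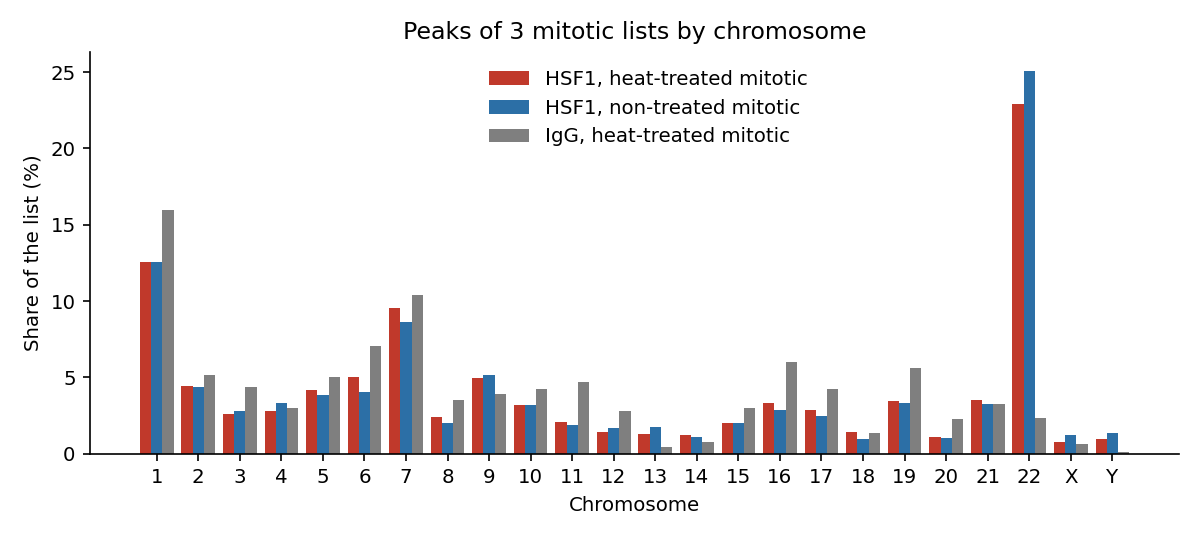
Share of the peaks of each list (vertical, from 0) on each chromosome (horizontal) for HSF1 in heat-treated mitotic cells, HSF1 in non-treated mitotic cells and IgG in heat-treated mitotic cells. Chromosome 22 holds 22.9% and 25.1% of the HSF1 lists and 2.33% of this IgG list, which is 958 of its 41184 peaks. The IgG list of non-treated mitotic cells, not drawn, has 17.8% of its peaks there.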

How the data were processed

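ChIP-seq peak lists of 12 antibody libraries of K562 cells were used, with mitotic HSF1 described and the other lists set beside it. Per the submitters' processing notes, the authors aligned reads with Bowtie to hg19 and called peaks with MACS 1.4. Per the file headers, the version was 1.4.1, with a p cutoff of 1e-05, a fragment size of 200 bp and at most 1 tag per position kept in both mitotic HSF1 libraries and non-treated mitotic IgG, and 2 in heat-treated mitotic IgG. The alignment names in the headers of the cycling HSF1 lists carry bwa, which differs from the notes, and those of the mitotic lists do not. Each list was called on 1 library against an input of its cell state. Per the headers, the control of non-treated cycling IgG kept 36542527 tags and that of the other 5 cycling lists 34815679.

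The deposited tag column is a count of tags per peak. The deposited fold is a ratio over expected input at the summit, the deposited score is minus 10 times log10 of the p-value, and the deposited false discovery rate is a percent. These are the authors' values and served to describe and filter peaks within a list. Per the headers, 28.9% of tags in heat-treated and 33.6% in non-treated mitotic HSF1 were redundant.

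Peaks were compared by an overlap of at least 1 bp, and peaks linked by overlap were summed into regions. Tags were scaled to 1000000 kept tags of the header. Intervals are Wilson for shares, exact Poisson for tags and exact conditional for ratios. They cover counting error only, since reads carry no molecular identifiers. With 1 library a group, no p-value is given.

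The members and lists were chosen with earlier results of these data known. Places picked by rule were, first, the 10 peaks per list with most tags that overlap neither IgG of the same treatment nor the other list. Further ones were the 5 shared regions without IgG with highest and the 5 with lowest ratio. The 5 peaks per list with most tags among those with IgG, and the 10 of highest fold per list, completed them. Gene names come from general knowledge of hg19. Peaks with a fold of at least 5 were added after the values were seen, and the 20 named places were drawn from those of the heat-treated list. No hg19 genome or annotation was used here, so peak sequences were not analysed. RefSeq promoters of GRCh38.p14 are shown for motifs alone. The steps were tested on simulated data of this comparison, where 300 of 300 planted overlaps among 4982 peaks were recovered. The planted peaks were slightly shifted copies of heat-treated peaks that had to overlap, so this checks the code alone. In addition, 48 overlap counts were compared with bedtools, of which 0 differed. Overlaps were checked with bedtools 2.31.1, values computed with scipy 1.17.1, pandas 2.3.3 and numpy 2.4.6 under Python 3.11.15, and plots drawn with matplotlib 3.10.9.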

Additional observations from a re-analysis of the deposited data

How the results depend on the processing

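No paired analysis was possible because each group has 1 library, and no replicate could be left out for the same reason. Of 78 alternatives, 11 stayed within the counting interval of the value or, for counts, within 1.5 times, and 67 moved. Direction could not be judged by a test. The shares below are of heat-treated and then of non-treated mitotic HSF1 peaks. Leaving out chromosome 22 and a fold of at least 3 were chosen after the data were seen. A filter was put on both lists compared.

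Overlap with the other HSF1 list (32.1% and 37.6%) was 19.1% and 20.95% with 50% reciprocal overlap, 16.0% and 17.6% for summits within 250 bp, 24.1% and 29.5% at a score of at least 100, 28.4% and 33.7% at a false discovery rate of at most 5%, 21.4% and 22.6% among the 2000 peaks of highest score, 4.09% and 53.8% at a fold of at least 3, 5.41% and 66.7% at a fold of at least 5, and 24.8% and 29.1% without chromosome 22. The order of the shares was the same under each of these, and so was each share's fall, apart from the shares of non-treated peaks at folds of 3 and 5, which rest on 13 and 3 peaks.

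Among peaks without IgG of the same treatment (16.5% and 29.4%), overlap was 9.66% and 14.8% with 50% reciprocal overlap, 7.51% and 13.2% for summits, 10.4% and 20.8% by score, 12.8% and 25.7% by false discovery rate, 10.1% and 11.2% among 2000 peaks, 0.870% and 33.3% at a fold of 3, 0% and 100% at a fold of 5 (1 non-treated peak), 11.3% and 19.7% without chromosome 22, and 10.2% and 11.3% with both IgG lists. The cause of these moves was not tested.

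Overlap with IgG of the same treatment (49.7% and 17.3%) was 17.1% and 8.67% with 50% reciprocal overlap, 20.4% and 10.4% for summits, and 54.6% and 53.4% with either IgG list. The heat-treated share was 36.5% with an IgG score of at least 100 and 43.2% without chromosome 22.

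Overlap with cycling HSF1 (24.1% and 24.0%) was 13.7% and 9.88% with 50% reciprocal overlap, 13.9% and 10.5% for summits, 16.7% and 12.4% by score, 22.6% and 16.6% among 2000 peaks, 83.0% and 38.5% at a fold of 3, and 94.6% and 33.3% at a fold of 5. The non-treated share was 8.70% by false discovery rate and 20.8% without chromosome 22.

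The median log2 ratio in shared regions (0.06) was 0.16 scaled to total tags, 0.014 with 50% reciprocal overlap and -0.030 per kilobase of peak. Regions at least 2-fold higher and lower after heat (125 and 54) were 32 and 17 with 50% reciprocal overlap, 15 and 10 without IgG, 3 and 13 per kilobase, and 56 and 29 without chromosome 22. Depth limits the weak peaks: with a minimum of 9 tags in heat-treated and 8 in non-treated peaks, and lists that hold only called peaks, absence from a list is not absence of tags.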
